A study of Mus musculus with 4 samples.

Results

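The enzymes that make and recycle nucleotides were followed as 9 genes: the 5-phosphoribosyl-1-pyrophosphate (PRPP) synthetase genes Prps1, Prps2 and Prps1l1, the genes of their associated proteins Prpsap1 and Prpsap2, the salvage gene Hprt, and the ribonucleotide reductase genes Rrm1, Rrm2 and Rrm2b. They were taken by symbol from a table of 23420 genes, and all 9 were found. Prps1, Prps2 and Hprt lie on the X chromosome and the other 6 on autosomes. RNA was measured in pachytene spermatocytes, which were sorted by FACS from testes of WT C57BL/6 mice aged 23 weeks. They were then kept in culture for 24 h, either with DMSO (Ctrl, 2 libraries) or with the ATR kinase inhibitor AZ20 at 10 μM (AZ20, 2 libraries). The methods of the study state that the cells of each mouse were split between the conditions. Each replicate number was therefore taken as 1 mouse, with n = 2 mice, although the labels do not state which libraries share a mouse. All cells had been out of the testis for the culture period, so both groups describe cultured cells. The question put to these genes is how their transcript levels differ when ATR signaling, which maintains meiotic sex chromosome inactivation (MSCI), is inhibited.

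PRPP synthetases join ribose 5-phosphate to pyrophosphate taken from ATP, and their product PRPP is used by de novo purine synthesis, by pyrimidine synthesis and by salvage enzymes such as HPRT, which rebuilds IMP and GMP from hypoxanthine and guanine. Ribonucleotide reductase turns ribonucleotides into deoxyribonucleotides for DNA synthesis and repair. It pairs a large subunit encoded by Rrm1 with a small subunit, encoded by Rrm2 in cycling cells or by the p53-inducible gene Rrm2b. In pachytene spermatocytes the X and Y chromosomes are silenced by MSCI, and several X-linked housekeeping genes have autosomal copies that are expressed in male germ cells.

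The main difference was that of Prps1, so the coding sequences of the PRPP synthetase paralogs are shown first. Prps1 and Prps2 are X-linked genes with 7 exons each. Prps1l1 is a chromosome 12 gene with 1 exon (GRCm38 chr12:34984761-34986436). A further copy, Prps1l3 on chromosome 12, was added after its values were seen, because its coding sequence is so close to that of Prps1. All 4 coding sequences have 954 bases. Without gaps, Prps1 shares 96.9% of its coding bases with Prps1l3, 86.9% with Prps1l1 and 80.0% with Prps2. The first 120 coding bases from the GENCODE transcripts are given here, with bases that differ from Prps1 in capitals.
Prps1: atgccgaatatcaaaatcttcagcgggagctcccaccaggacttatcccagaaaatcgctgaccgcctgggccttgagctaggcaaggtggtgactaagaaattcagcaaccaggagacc
Prps1l3: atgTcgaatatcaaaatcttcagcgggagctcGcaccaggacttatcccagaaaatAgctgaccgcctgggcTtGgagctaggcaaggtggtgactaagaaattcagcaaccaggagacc
Prps1l1: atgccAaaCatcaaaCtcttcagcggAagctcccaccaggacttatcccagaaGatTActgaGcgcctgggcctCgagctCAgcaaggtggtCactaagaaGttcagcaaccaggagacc
Prps2: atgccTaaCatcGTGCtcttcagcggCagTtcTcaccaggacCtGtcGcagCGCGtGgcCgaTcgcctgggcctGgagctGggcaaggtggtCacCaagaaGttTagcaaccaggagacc

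In this stretch Prps1l3 differed from Prps1 at 5 bases, Prps1l1 at 13 and Prps2 at 25. The authors kept uniquely aligned reads only, so near-identical stretches could lose reads. Of all windows of 150 bases, the length of 1 read, 99.2% in the Prps1 transcript and all in those of Prps2, Prps1l1 and Hprt occurred in no transcript of another gene. The share was 96.7% for Prps1l3, whose shared windows lay in Prps1 and in the overlapping gene Mipol1. With windows of 75 bases it was 94.9% for Prps1 and 77.9% for Prpsap2, which has processed pseudogenes. Rrm2b overlaps the antisense gene Gm49085, and reads of the pair may not be separable. These searches covered annotated transcripts and required exact matches, and the rest of the genome was not searched.

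As a sum, markers of pachytene spermatocytes were high in all libraries. The summed level of the 10 pachytene markers, led by Ldhc, was 10190 to 10531 TPM (a transcript level scaled to gene length and library depth) in Ctrl and 10592 to 10896 TPM in AZ20. Ldhc alone had 5827 to 6056 TPM in Ctrl and 5216 to 6178 TPM in AZ20, so the sum rests largely on this gene. Of the 10 markers, 6 had a positive and 4 a negative change (log2 differences from -0.54 to 0.29), and 0 were called. Markers of round spermatids, led by Tnp2, summed to 368 and 152 TPM in Ctrl replicates 1 and 2 and to 780 and 255 TPM in AZ20 replicates 1 and 2. All 8 had a positive change and 0 were called. Spermatogonia markers, led by Uchl1, summed to 8.26 to 21.2 TPM in Ctrl and 13.5 to 14.9 TPM in AZ20, with 3 of 8 (Stra8, Dmrt1 and Sohlh1) listed at 0. Sertoli cell markers, led by Ctsl, summed to at most 11.1 TPM in any library, with 4 of 8 (Sox9, Wt1, Rhox5 and Gata1) listed at 0. Leydig cell markers (Star, with the other 5 of 6 listed at 0), macrophage markers (led by Cd68, with C1qa at 0) and peritubular myoid markers (led by Tagln, with Des at 0) summed to at most 2.31, 1.34 and 4.60 TPM. Depth, recovered from the steps between TPM values, was 14115286 and 16019047 gene reads for the Ctrl libraries, against 20444654 and 18674829 with AZ20.

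Of the members, Prps1 alone (1 of 9) was called higher in AZ20 than in Ctrl, and 0 members were called lower, in a fit without a term for the mouse. With the replicate number as a block, 2 members (Prps1 and Hprt) were called higher and 0 lower, against 4.11% and 0.223% of all genes tested. A call needed a difference of 2-fold or more in TPM + 1 and an adjusted p (Benjamini-Hochberg, limma over all genes tested) under 0.05. The genes tested were those with a mean TPM above 1 in either condition. On this scale the change of a low gene is understated. Of the 9 members, 8 were tested, and Prps2 fell under the filter. Prps1 and Hprt, with means of 0.931 and 0.418 TPM in Ctrl, passed the filter only through their level in AZ20. Over all 10316 genes tested, 2.28% were called higher and 0.0485% lower. Among the 341 X-linked genes tested 63.3% were called higher, and among autosomal genes 0.101%. An X-linked gene low in Ctrl was tested only where its mean level in AZ20 was above 1 TPM. Of 1034 X-linked genes, 693 were not tested, so the X-linked share, median and ranks hold for the filtered genes only. At an unadjusted p under 0.05, 3 members were higher (Prps1, Hprt and Prpsap2) and 0 were lower, against 8.03% and 1.13% of all genes tested. Both AZ20 libraries were above both Ctrl libraries for 5 members (Prps1, Hprt, Prpsap1, Prpsap2 and Rrm2b), an ordering that 26.4% of all genes tested also showed. The median change of the 8 tested members was 0.37, against 0.07 over all genes tested and 2.61 over X-linked genes tested. That of the members includes Prps1 (6.25) and Hprt (1.93), while the 6 autosomal members ranged from -0.43 to 0.69. In RNA from many cells, a change in the number of cells of a type and a change in RNA per cell cannot be told apart.

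**Figure D1:**
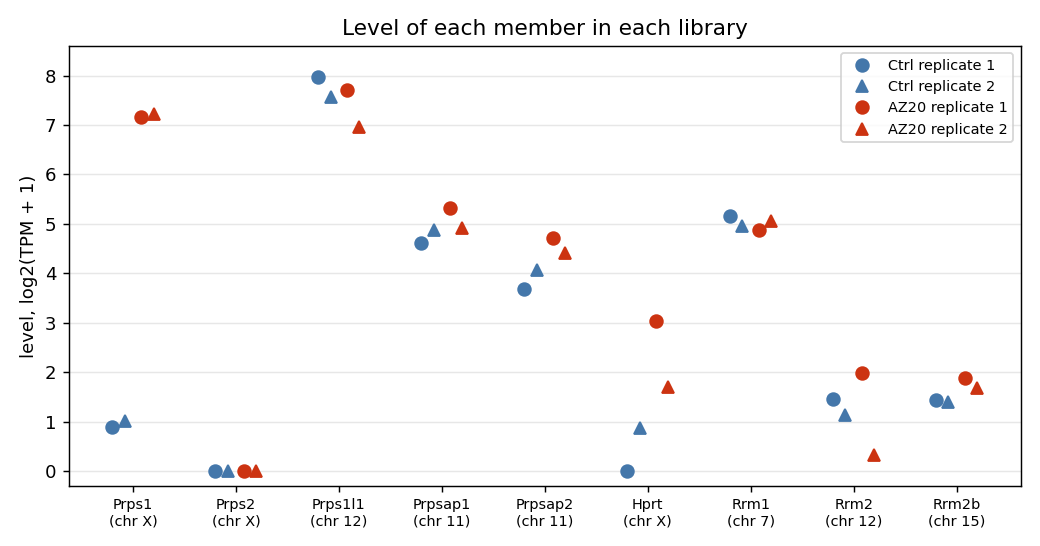
Level of the 9 members on the vertical axis as log2(TPM + 1), with 1 point for each of the 4 libraries (blue, Ctrl; red, AZ20; circles, replicate 1; triangles, replicate 2). Prps1 moves from near 1 to above 7 on this scale, Prps2 is listed at 0 in every library, and Hprt and Rrm2 spread widely between the AZ20 libraries.

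Prps1 encodes the PRPP synthetase that most tissues use. The gene lies at chrX:140456613-140476140 (GRCm38, plus strand). Its level was 0.853 and 1.01 TPM in Ctrl replicates 1 and 2, on 17 and 23 reads, and 142 and 149 TPM in AZ20 replicates 1 and 2, on 4080 and 3861 reads. Both AZ20 libraries were thus far above both Ctrl libraries and close to each other. The mean of the Ctrl libraries was 0.931 ± 0.111 TPM and that of the AZ20 libraries 146 ± 4.88 TPM (SD, n = 2 each), a 156-fold difference. It was 167-fold in the first replicate pair and 148-fold in the second. The difference of log2(TPM + 1) was 6.25 (standard error 0.21, 95% interval 5.74 to 6.75, limma adjusted p = 3.81e-05). Among the 341 X-linked genes tested Prps1 ranked 13 by this difference, 13 by its mean level in AZ20 and 56 by its mean level in Ctrl. In Ctrl 7.3% of all genes tested had a lower mean level than Prps1, and in AZ20 88.5%. Without AZ20 replicate 1 the log2 difference was 6.28 (limma adjusted p = 0.0946), and without AZ20 replicate 2 it was 6.21 (limma adjusted p = 0.0700). In both of these fits 0 of all genes tested were called.

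Prps1l1, which encodes a PRPP synthetase known from testis, was the most abundant member in Ctrl. It had 250 and 188 TPM in Ctrl and 207 and 123 TPM in AZ20, and the groups overlapped. Within each replicate pair the AZ20 library was the lower, at 0.831 and 0.657 times the Ctrl library. In each condition replicate 1 was the higher library. The difference of log2(TPM + 1) was -0.43 (standard error 0.28, 95% interval -1.09 to 0.22, limma adjusted p = 0.746). Prps1l3, the close copy of Prps1, had 15.5 and 9.95 TPM in Ctrl and 12.3 and 13.7 TPM in AZ20, with a log2 difference of 0.06 (standard error 0.27, limma adjusted p = 0.975). The level of Prps1l3 in AZ20 was thus within its range in Ctrl while that of its near-identical relative was 156-fold higher. The recovered reads of Prps1l3 imply a length of 4006 bases, against 1720 in GENCODE. Its TPM may therefore rest on another gene model than the transcript searched above.

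The makeup of the PRPP synthetase transcripts was compared next. Because TPM values are per length, the paralogs can be added within a library. Prps2 enters each sum at its listed 0, which does not show that its transcript is absent. Prps1 made up 0.341% and 0.535% of the summed TPM of Prps1, Prps2 and Prps1l1 of the Ctrl replicates, but 40.7% and 54.7% with AZ20. The ratio of Prps1 to Prps1l1 was 0.00342 and 0.00538 in Ctrl and 0.685 and 1.21 in AZ20, so Prps1l1 was the higher of the pair in AZ20 replicate 1 and Prps1 in AZ20 replicate 2. The sum itself was 250 and 189 TPM in Ctrl and 350 and 272 TPM in AZ20. Both AZ20 sums were above both Ctrl sums, by 1.40-fold in the first pair and 1.44-fold in the second, and the ratio of the means was 1.42. For this sum, as for the share of Prps1, a two-sided exact permutation test gave p = 0.33, the smallest that 2 libraries against 2 allow. With Prps1l3 in the sum, the ratio of the means was 1.39 and Prps1 made up 39.3% and 52.1% in AZ20.

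**Figure D2:**
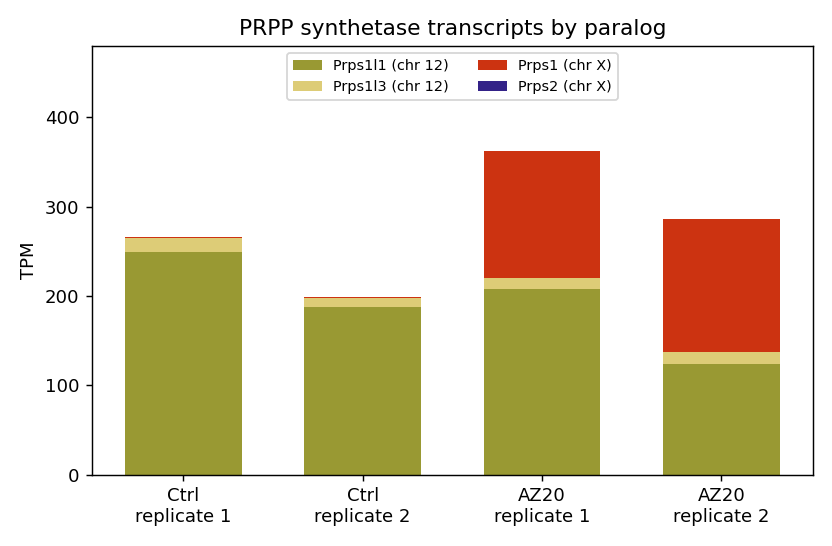
Stacked bars of the TPM of Prps1l1, Prps1l3, Prps1 and Prps2 in each of the 4 libraries, from 0. Prps1 is barely visible in Ctrl and reaches 142 and 149 TPM in AZ20, beside 207 and 123 TPM of Prps1l1. Prps2 is listed at 0 in every library.

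Prps2, the other X-linked PRPP synthetase gene, lies at chrX:167346322-167382749 (GRCm38, minus strand). It was listed at 0 in all 4 libraries, those with AZ20 included. Of the 1034 X-linked genes in the table, 391 (37.8%) were listed at 0 in every library. A listed 0 does not show that a transcript is absent, because genes used by most cells, such as the purine synthesis gene Atic, were listed at 0 as well.

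Hprt, the X-linked salvage gene (chrX:52988137-53021659, GRCm38, plus strand), stood at 0 and 0.835 TPM in Ctrl, on 0 and 13 reads, and at 7.14 and 2.26 TPM in AZ20, on 140 and 40 reads. Both AZ20 libraries were above both Ctrl libraries, but they differed more from each other than the Ctrl libraries did. The second pair differed by 2.70-fold. In the first pair, set against a floor of 3 reads (0.220 TPM in that Ctrl library), Hprt was 32.4-fold higher with AZ20. This floor covers counting error only and is no bound on the difference. The difference of log2(TPM + 1) was 1.93 (standard error 0.52, 95% interval 0.70 to 3.16), 3.02 in the first pair and 0.83 in the second, and it was not called (limma adjusted p = 0.216). With the replicate number as a block it was called (limma adjusted p = 0.000655), whereas limma with voom weights on the recovered reads and the same block gave an adjusted p of 0.0529. By its log2 difference Hprt ranked 215 of the 341 X-linked genes tested. The summed round spermatid markers, at 780 and 255 TPM in AZ20, stood higher in replicate 1, as Hprt did. In Ctrl they were 368 and 152 TPM, higher in replicate 1 where Hprt was listed at 0. Their part in the level of Hprt was not tested.

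**Figure D3:**
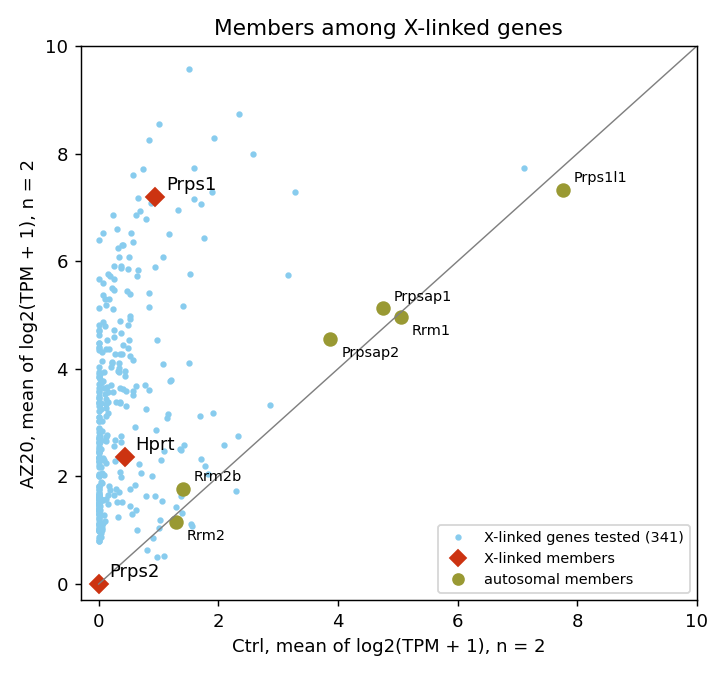
Mean log2(TPM + 1) in AZ20 (vertical axis) against Ctrl (horizontal axis), n = 2 libraries each, for the 341 X-linked genes tested (light blue), the 3 X-linked members (red diamonds) and the 6 autosomal members (olive circles); the line marks equal levels. Prps1 lies high among the X-linked genes, Hprt lower, Prps2 at the origin, and the autosomal members lie near the line.

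The genes nearest in pattern to Prps1, by the Euclidean distance of log2(TPM + 1) over the 4 libraries, were the X-linked genes Bcap31 (distance 0.37) and Pbdc1 (distance 0.47). Bcap31, which encodes a membrane protein of the endoplasmic reticulum, had 1.06 and 0.643 TPM in Ctrl and 133 and 135 TPM in AZ20. Pbdc1 had 0.378 and 0.794 TPM in Ctrl and 145 and 140 TPM in AZ20. For Hprt the nearest were autosomal, namely Actl7a on chromosome 4 (distance 0.70) and Snora33 on chromosome 10 (distance 0.73). Actl7a, an actin-like gene of spermatids, had 0.395 and 0.692 TPM in Ctrl and 8.19 and 1.37 TPM in AZ20. It was picked for its nearness over these same values, so its likeness to Hprt is no separate observation. These distances describe the 4 libraries and were not tested.

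The 3 X-linked members thus ranged from the strong rise of Prps1 to the listed 0 of Prps2, and the 250 bases before their start sites are given for comparison. They come from RefSeq on GRCm38.p6, whose promoter table held 7 of the 9 members, and none overlaps a GENCODE exon. Capitals mark the GC box (GGGCGG or its reverse complement CCGCCC), the CCAAT box (CCAAT or ATTGG) and the TATA box (TATAAA or TTTATA). The windows are chrX:140456353-140456602 for Prps1, chrX:52987828-52988077 for Hprt and chrX:167382750-167382999, minus strand, for Prps2.
Prps1: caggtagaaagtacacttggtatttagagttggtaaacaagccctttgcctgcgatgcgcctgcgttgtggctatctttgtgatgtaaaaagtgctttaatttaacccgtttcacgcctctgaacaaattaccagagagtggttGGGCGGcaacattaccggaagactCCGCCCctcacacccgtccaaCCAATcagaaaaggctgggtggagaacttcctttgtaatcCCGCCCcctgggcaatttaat
Hprt: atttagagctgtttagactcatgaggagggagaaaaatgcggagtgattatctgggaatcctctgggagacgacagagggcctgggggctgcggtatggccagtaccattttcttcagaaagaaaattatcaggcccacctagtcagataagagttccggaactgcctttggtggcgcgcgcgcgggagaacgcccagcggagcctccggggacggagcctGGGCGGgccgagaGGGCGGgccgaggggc
Prps2: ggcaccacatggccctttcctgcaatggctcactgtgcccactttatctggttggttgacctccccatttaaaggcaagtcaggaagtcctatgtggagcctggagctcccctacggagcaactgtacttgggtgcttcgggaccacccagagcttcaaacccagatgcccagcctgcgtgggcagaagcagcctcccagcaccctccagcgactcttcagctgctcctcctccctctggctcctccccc

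The Prps1 window held 3 GC boxes and 1 CCAAT box, the Hprt window 2 GC boxes, and the Prps2 window none of these letters. Of 32851 promoter windows of this length, 32.7% held a GC box, 33.8% a CCAAT box and 12.4% a TATA box. The windows of Prps1, Hprt and Prps2 held 10, 17 and 4 CpG dinucleotides, against a median of 6. A match of letters is a description of the window and says nothing of a bound factor.

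The PRPP synthetase-associated proteins, which bind the synthetases and are known as negative regulators of them, are encoded by autosomal genes on chromosome 11. Prpsap2 (chr11:61729650-61762088, GRCm38) had 11.9 and 15.6 TPM in Ctrl and 25.2 and 20.2 TPM in AZ20, so the groups did not overlap. Its log2 difference was 0.69 (standard error 0.24, 95% interval 0.11 to 1.26), and it was not called (limma adjusted p = 0.420). Prpsap1 (chr11:116470845-116494202) had 23.6 and 28.5 TPM in Ctrl and 39.2 and 29.3 TPM in AZ20. The second pair differed by only 1.03-fold, and the log2 difference of 0.37 (standard error 0.23) was not called (limma adjusted p = 0.737). The ratio of Prpsap1 to Prpsap2 was 1.98 and 1.82 in Ctrl and 1.55 and 1.45 in AZ20. For each unit of Prpsap1 plus Prpsap2 there were 7.07 and 4.27 units of the summed synthetase TPM in Ctrl and 5.42 and 5.50 in AZ20, and these ranges overlapped.

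Ribonucleotide reductase transcripts were not called in either direction. Rrm1 (chr7:102441695-102469771, GRCm38), which encodes the large subunit, had 34.7 and 29.9 TPM in Ctrl and 28.5 and 32.1 TPM in AZ20, with a log2 difference of -0.09 (standard error 0.20, 95% interval -0.57 to 0.40, limma adjusted p = 0.951). The small subunit genes were far lower. Rrm2 (chr12:24708241-24714146), which encodes the small subunit of S phase, had 1.73 and 1.19 TPM in Ctrl, on 38 and 30 reads, and 2.93 and 0.245 TPM in AZ20, on 93 and 7 reads. The AZ20 libraries thus lay on both sides of the Ctrl libraries, and the log2 difference of -0.14 had a 95% interval of -1.44 to 1.15 (limma adjusted p = 0.972). Rrm2b (chr15:37923952-37961318), which encodes the small subunit used outside S phase, had 1.69 and 1.63 TPM in Ctrl, on 77 and 85 reads, and 2.67 and 2.20 TPM in AZ20, on 175 and 130 reads. The groups did not overlap, and the log2 difference of 0.36 (standard error 0.29, 95% interval -0.32 to 1.05) was not called (limma adjusted p = 0.814).

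The balance of the subunits was read as ratios within a library. The level of Rrm1 was 10.2 and 10.6 times the sum of Rrm2 and Rrm2b in Ctrl, and 5.09 and 13.1 times in AZ20. Rrm2b reached 0.0487 and 0.0546 of the level of Rrm1 in Ctrl and 0.0935 and 0.0684 in AZ20, a ratio of means of 1.57 (two-sided exact permutation test, p = 0.33, the smallest possible). For Rrm2 the ratio to Rrm1 was 0.0498 and 0.0399 in Ctrl and 0.103 and 0.00763 in AZ20 (two-sided exact permutation test, p = 1.0).

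**Figure D4:**
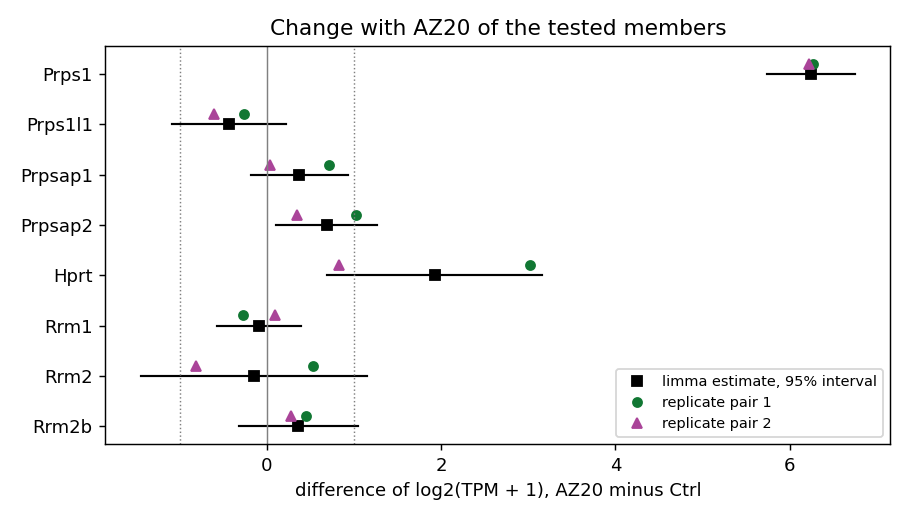
Difference of log2(TPM + 1) between AZ20 and Ctrl for the 8 tested members (squares, limma estimate with its 95% interval), with the difference in replicate pair 1 (circles) and pair 2 (triangles); dotted lines mark 2-fold. In this fit, which has no term for the mouse, only Prps1, at 6.25, was called. The interval of Hprt, 0.70 to 3.16, is wide, and the pairs of Rrm1 and Rrm2 lie on opposite sides of 0. With the replicate block Hprt was called as well.

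Ordered by mean level, the members in Ctrl ran from Prps1l1 (219 ± 43.8 TPM, SD, n = 2) through Rrm1 (32.3), Prpsap1 (26.0), Prpsap2 (13.8), Rrm2b (1.66), Rrm2 (1.46), Prps1 (0.931) and Hprt (0.418) to Prps2. Of neighbours in this order, the ranges of the 2 libraries overlapped for Rrm2b and Rrm2, and Hprt in Ctrl replicate 1 was listed at 0 like Prps2. In AZ20 the order was Prps1l1 (165 ± 59.5 TPM, SD, n = 2), Prps1 (146), Prpsap1 (34.3), Rrm1 (30.3), Prpsap2 (22.7), Hprt (4.70), Rrm2b (2.43), Rrm2 (1.59) and Prps2. There the ranges overlapped between Prps1l1 and Prps1, between Prpsap1 and Rrm1, between Hprt and Rrm2b, and between Rrm2b and Rrm2. Prps1 was the member that changed place most, from below Rrm2 to beside Prps1l1.

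Other genes of nucleotide metabolism, of S phase and of the p53 response gave 0 calls in either direction among 59 tested of 94 listed. Over all genes tested 2.28% were called higher and 0.0485% lower. Among autosomal genes 0.101% were called higher, and the count of 0 is close to that share. The X-linked genes of these lists (Ctps2, Uprt and Pola1) were not tested. At an unadjusted p under 0.05, 3 of the 59 were higher and 0 were lower, against 8.03% and 1.13% of all genes tested. The 3 were Mdm2, Pmaip1 and Trp53inp1, the last named after its values were seen. All 3 were among the 8 p53 targets tested, and the nucleotide and S phase lists had 0. With the replicate block the count of calls was 1, Pmaip1, against 4.11% called higher and 0.223% lower over all genes tested. With voom on the recovered reads the count was 0, with or without the block. In de novo purine synthesis, which starts from PRPP, 5 of 6 genes were tested, with changes from -0.40 to 0.19 and a median of 0.11. Its most abundant gene, Paics, encodes an enzyme of the middle of that pathway and had 104 and 105 TPM in Ctrl and 92.9 and 117 TPM in AZ20. Adsl, with the largest difference of that list (-0.40), was not called (limma adjusted p = 0.698).

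Purine interconversion (8 of 13 tested) and pyrimidine synthesis (3 of 6 tested) had medians of 0.13 and -0.03. The pyrimidine list was led in level by Umps, which makes UMP, and the largest differences of these lists were those of Gmpr2 (-0.41) and Dhodh (0.44). The X-linked Ctps2, which encodes a CTP synthase, had 2 and 0 reads in the Ctrl libraries, against 5 and 9 with AZ20, and fell under the filter. In salvage (9 of 17 tested, median 0.19) the autosomal Aprt, which rebuilds AMP from adenine and PRPP, had 360 and 405 TPM in Ctrl and 413 and 289 TPM in AZ20. Its level was 57.9 and 128 times that of Hprt in the AZ20 libraries. Pnp, a purine nucleoside phosphorylase, had the largest difference of this list (0.69, limma adjusted p = 0.563), and the X-linked Uprt was listed at 0 throughout.

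Genes of deoxynucleotide supply (8 of 10 tested, median 0.01) and of nucleotide breakdown (6 of 11 tested, median -0.05) were led by Nme1 and Nt5m, and their largest differences were those of Shmt1 (-0.26) and Nt5c (-0.44). The S phase genes (12 of 15 tested) had a median of -0.04. Pcna, the replication clamp, had 627 and 760 TPM in Ctrl and 789 and 766 TPM in AZ20, with a log2 difference of 0.17. The licensing gene Cdc6 had 2.47 and 1.88 TPM in Ctrl and 0.922 and 1.23 TPM in AZ20, with a difference of -0.61 that was not called (limma adjusted p = 0.666). The X-linked Pola1, which encodes a subunit of DNA polymerase alpha, had 11 and 5 reads in the Ctrl libraries, against 101 and 42 with AZ20, but stayed under the filter. The p53 targets, to which Rrm2b belongs in other cells, had a median of 0.62 over 8 tested of 16, with 7 positive and 1 negative change. Over all genes tested the median was 0.07. The values of Mdm2, which encodes the ubiquitin ligase of p53, were 68.2 and 68.0 TPM in Ctrl and 92.9 and 116 TPM in AZ20 (log2 difference 0.60, limma adjusted p = 0.341). Pmaip1, a pro-apoptotic gene, had 2.32 and 6.04 TPM in Ctrl and 9.61 and 8.24 TPM in AZ20 (log2 difference 1.04, limma adjusted p = 0.462).

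**Figure D5:**
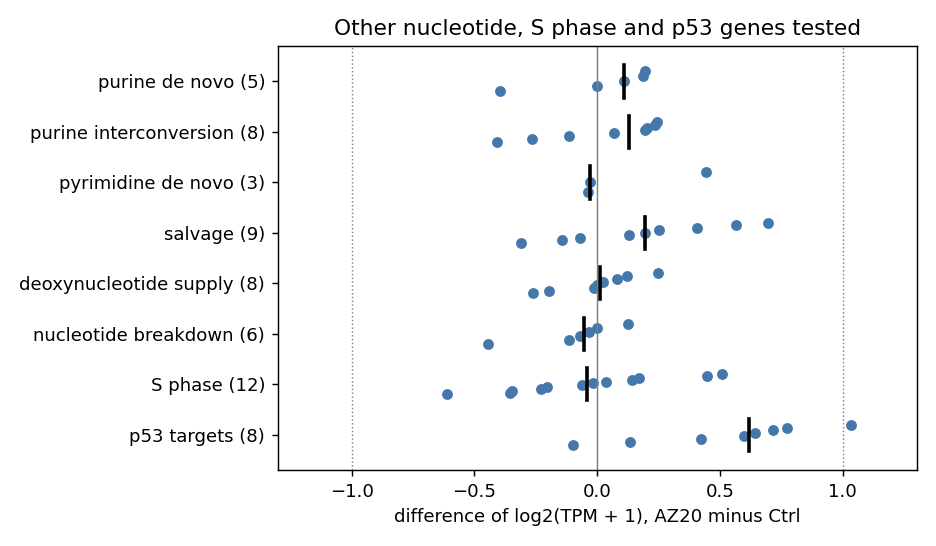
Difference of log2(TPM + 1) between AZ20 and Ctrl for each tested gene of 8 lists (points; the number tested in brackets), with the median of the list as a black bar and dotted lines at 2-fold. The medians of the nucleotide and S phase lists lie between -0.05 and 0.19, that of the p53 targets is 0.62, and 0 genes were called in this fit without a term for the mouse.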

How the data were processed

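RNA-seq of 4 libraries of pachytene spermatocytes (2 Ctrl, 2 AZ20) was used. Per the methods and processing notes, Trimmomatic 0.39 was used for trimming, STAR 2.5.4b for alignment to GRCm38 (unique alignments kept) and featureCounts 2.0.1 for counting on refGene, and the authors deposited TPM values. The 92 blank lines were left out. Log2(TPM + 1) of 10316 genes was fitted with limma 3.58.1 (R 4.3.3) with a trend in the variance. When tested on simulated data, the fit made more calls on unchanged genes than the nominal rate, all on genes with few reads. Other values came from Python 3.11.15, pandas 2.3.3 and scipy 1.17.1.

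Whole reads were recovered for all 16857 genes above 0 from the ratios of a gene's TPM between libraries. The length these reads imply was compared with GENCODE transcripts (5% tolerance), and the reads of 1600 genes were multiplied by a whole factor. This was settled for 11571 genes, so the depths are estimates. Reads give counting error only.

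Deviations of same-numbered libraries from their group means had a correlation of 0.231 over autosomal and 0.183 over X-linked genes. With 2 libraries a group, swapping the numbers within a group only reverses the sign, so these values cannot show a shared mouse. The methods state a shared mouse, and the pairing by replicate number is inferred from it. The methods state no term for the mouse, so the block is an alternative. Named genes were the members, called or X-linked genes of the lists, the highest level and largest change of each pathway list, the highest level of each marker list, and the 2 nearest patterns to each tested X-linked member. The highest level of 1 list is not reported here. Members, lists and tests were chosen with earlier results of these data known.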

Additional observations from a re-analysis of the deposited data

How the results depend on the processing

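Prps1 kept its direction under all 14 alternatives, with a log2 change of 6.06 to 7.28, and its call under all but those without an AZ20 library. With the replicate block 2 members (Prps1 and Hprt) and 1 other listed gene were called, the block changed no other call of a member, and 0 members were called lower under any alternative. Over all genes the block gave 424 calls higher and 23 lower, against 235 and 5. With 1 library left out, 0 to 1 members were called higher. The lone library of a condition is then assumed to vary like the other condition. Hprt ranged from 1.27 to 5.45, the latter with a pseudocount of 0.01. With a library left out, Rrm1 ranged from -0.19 to 0.017 (positive without Ctrl replicate 1) and Rrm2 from -0.97 to 0.69 (0.01 without Ctrl replicate 1, 0.69 without AZ20 replicate 2). The cause of these reversals was not tested. Prps1l1 (-0.81 to -0.06), Prpsap1, Prpsap2 and Rrm2b kept their direction. The ratio of the summed synthetase TPM was 1.24 to 1.65 with a library left out. Quantile normalization moved the median of all genes by -0.143, and scaling to the autosomal total by 0.0119. Rrm2 rests on 7 to 93 reads a library.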
